A study of Bos taurus with 34 samples.

Results

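The cell cycle and DNA replication genes are 46 genes that act in S phase or in mitosis, and their RNA was measured in the oviduct and uterus linings of 5 adult Holstein heifers that had never calved. The list was given by gene symbol, and each gene was represented by the annotated feature of the count table, usually a single RefSeq transcript, that had the highest mean read count. Of the 46 genes, 36 had a feature, among 21530 genes that were matched to the table. The animals, heifers 10872, 10882, 11033, 11070 and 11110, had been synchronised with a 5-day CIDR-Synch protocol, in which an intravaginal progesterone insert is used, and all groups were collected on day 2 after ovulation. Both sides of the tract, that of the ovulation (ipsilateral) and the opposite one (contralateral), gave samples of the oviduct at the ampulla, where the lining is called endosalpinx, and of the upper and the mid horn. The uterine body was sampled once per animal by the labels. This gave 7 groups of 5 libraries, except the ipsilateral upper horn with 4, and 34 libraries in all.

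Cells that leave quiescence load the MCM helicase onto replication origins with the help of CDC6 and CDT1, and E2F transcription factors switch on the genes for the replication fork and for deoxynucleotide supply. Cyclins A and B with their kinase then drive mitosis, during which spindle motors and the spindle checkpoint guide chromosome separation. In the uterus, oestrogen around oestrus is known to stimulate epithelial division, whereas mature multiciliated cells of the oviduct no longer divide. RNA of these genes is commonly read as a sign of dividing cells, although several of them, such as PCNA and RRM1, are also used in DNA repair.

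Total counts per library ran from 11619486 to 30412782. Levels are CPM, the counts of a feature relative to the size of its library after TMM scaling, and are given as mean ± SD over heifers after averaging the libraries of a region within a heifer. Ampulla libraries held 923 to 1385 CPM of 6 ciliated epithelium markers against 52.6 to 357 in the uterine libraries, and 38.0 to 101 CPM of 6 stromal markers against 33783 to 78763. The stromal markers DCN, LUM and PDGFRA and the endothelial markers PECAM1, CDH5, VWF and CLDN5 had 0 counts in all 10 ampulla libraries. In 1 uterine library, the contralateral mid horn of heifer 10882, the 3 oviduct secretory markers summed to 819 CPM against 0.779 to 62.6 in the other 23. The contralateral ampulla of heifer 11070 and the contralateral upper horn of heifer 11033 held the fewest features, 15773 and 16049. These 3 libraries are called doubted below, and results are also given without them.

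How many of the genes could be measured varied with how many transcripts each has. Of the 46 genes, 10 matched no feature and are not analysed here: MKI67, CCNE1, CDC6, BUB1B, TPX2, KIF20A, CENPF, PRC1, UBE2C and FOXM1. A further 12 had a feature with 4 to 130 counts over all 34 libraries, under the filter on low counts, and 24 passed it. Of the 15 genes to which RefSeq gives 1 transcript, 13 passed, among the 14 with 2 transcripts 8 passed, and among the 17 with 3 or more transcripts 3 passed. How reads shared by several transcripts were counted is not given in the sources used here, so a low feature does not show that the gene was silent. The 24 genes that passed are thus not a sample of all 46, and levels are compared between libraries for 1 gene and never between genes.

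The first question was how the ampulla differed from the endometrium, the lining of the upper horn, mid horn and body taken with equal weight. Most replication genes and the cyclins CCNB1 and CCNA2 were lower in the ampulla. A few genes of mitosis, led by CCNB2, were higher there. By edgeR's quasi-likelihood test with heifer as a block, 13 of the 24 tested genes fell and 4 rose, at a Benjamini-Hochberg adjusted p under 0.05. Over all 17241 features 64.9% were called, 35.6% as lower and 29.4% as higher, and among these genes 70.8% were called, 54.2% as lower and 16.7% as higher. The median log2 fold change of the 24 genes was -0.64, beside -0.18 over all features.

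**Figure D1:**
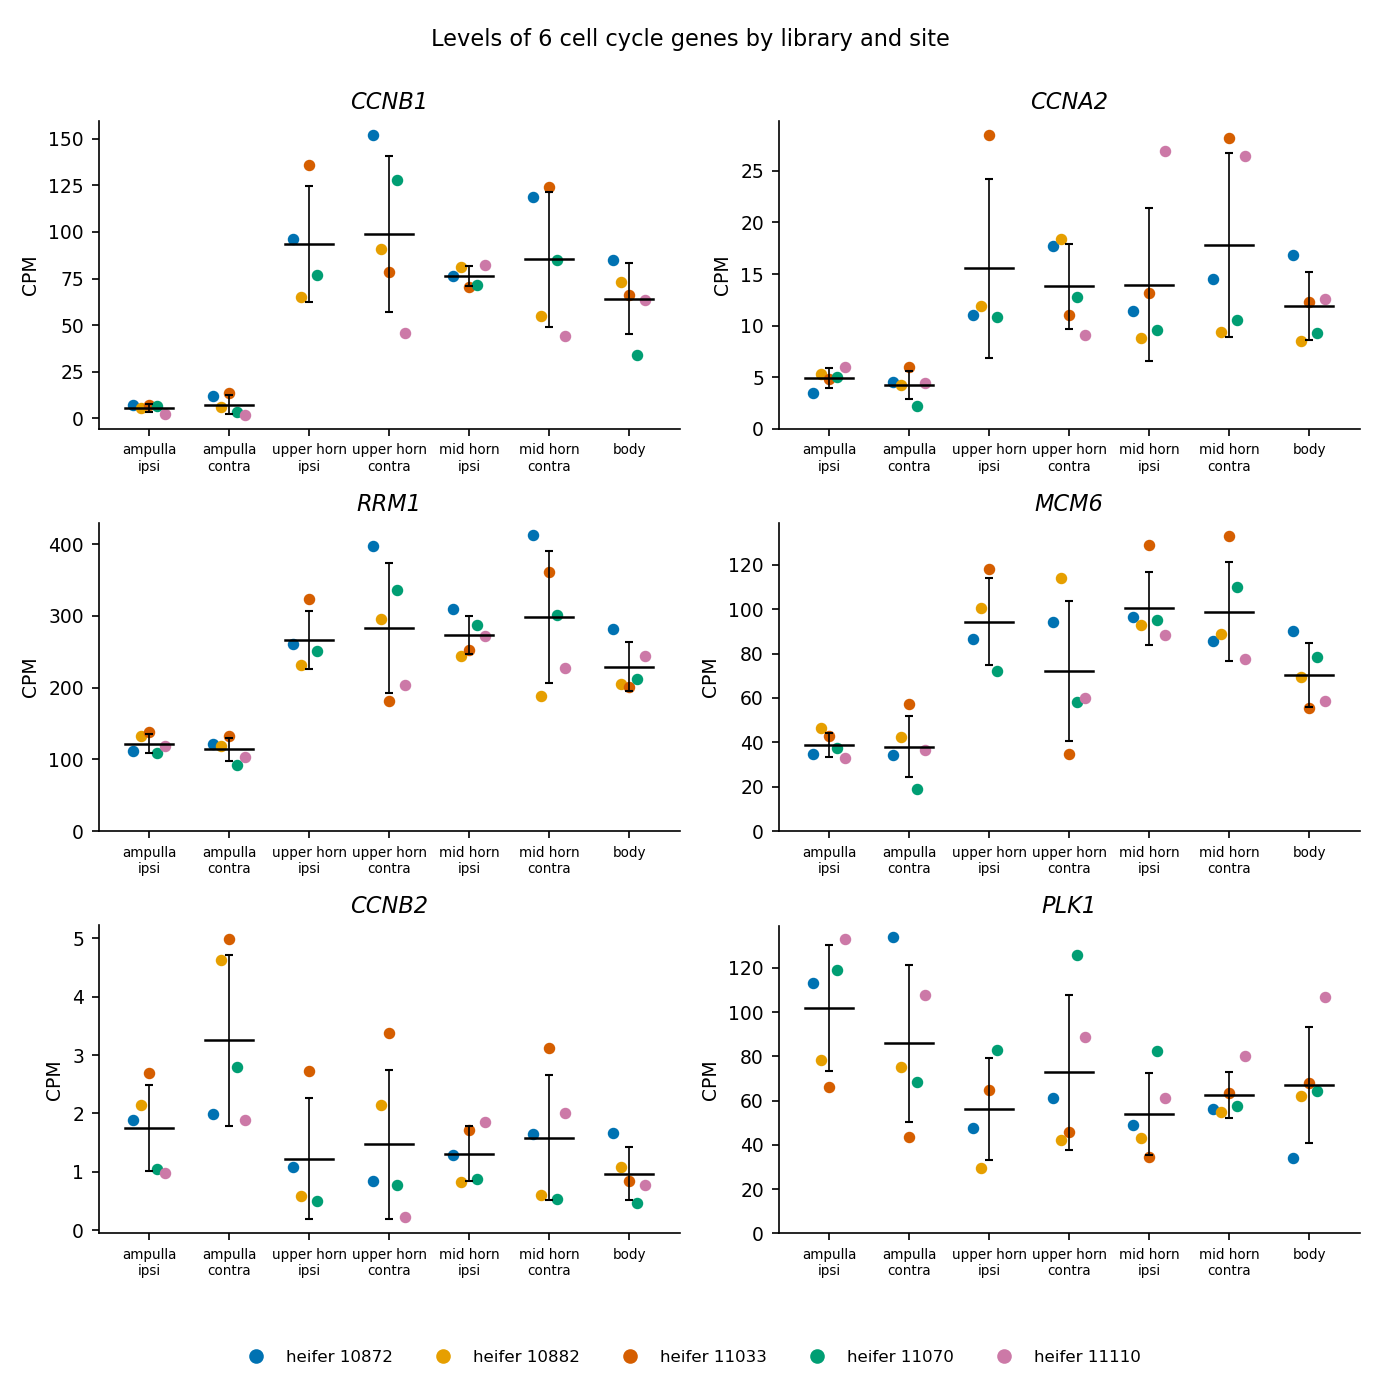
CPM (y axis, linear) of 6 genes in each library (points, coloured by heifer) at the 7 sites (x axis), with the group mean (bar) and SD (whisker). CCNB1, CCNA2 and RRM1 were lower in every ampulla library than in any uterine library, while the points of CCNB2 and PLK1 overlapped between ampulla and uterus.

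CCNB1, cyclin B1, which activates the mitotic kinase CDK1, had the largest difference. In the ipsilateral ampulla it stood at 7.10, 5.25, 7.04, 6.67 and 2.16 CPM in heifers 10872, 10882, 11033, 11070 and 11110. In the contralateral ampulla the values in the same order were 11.7, 6.09, 13.8, 3.28 and 1.81 CPM. The 24 uterine libraries ran from 33.7 to 152 CPM with a median of 77.6. No ampulla library reached the lowest uterine one, the body of heifer 11070. The region means were 6.48 ± 3.43 CPM for ampulla and 78.9 ± 17.5 for endometrium (n = 5 heifers), a log2 fold change of -3.72 ± 0.24 (SE, edgeR adjusted p 6.94e-15), lower in 5 of 5 heifers. Within the uterus the group means lay between 64.2 ± 19.0 CPM in the body and 98.9 ± 41.6 in the contralateral upper horn, and the ranges of these 5 groups overlapped.

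CCNA2, cyclin A2, which acts in S phase and at entry into mitosis, showed the same separation. The 10 ampulla libraries held 2.24 to 6.03 CPM with a median of 4.68, and the 24 uterine libraries 8.51 to 28.5 with a median of 12.1. The ranges did not overlap, and the log2 fold change was -1.60 ± 0.21 (edgeR adjusted p 5.34e-08, 5 of 5 heifers). EXOSC9, an exosome subunit gene that overlaps CCNA2 in the reference table, gave -0.87 ± 0.26 and was lower as well. Whether the counting used strand is not given in the sources used here, so reads of overlapping genes may not be told apart.

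Among the other genes of entry into mitosis the direction turned. CCNB2, cyclin B2, was at 1.89, 2.15, 2.69, 1.04 and 0.985 CPM in the ipsilateral ampulla of heifers 10872, 10882, 11033, 11070 and 11110. In the contralateral ampulla it was at 1.99, 4.63, 4.98, 2.80 and 1.88 CPM in that order. The uterine libraries ran from 0.232 to 3.38 with a median of 0.982, so the ranges overlapped, and 2 ampulla libraries lay above all uterine ones. Its log2 fold change was 1.01 ± 0.27 (edgeR adjusted p 0.00179), higher in 5 of 5 heifers. CCNB1 and CCNB2 thus went in opposite directions in the same libraries, CCNB2 from a feature with 1065 counts in all.

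PLK1, the polo-like kinase of mitosis, rose by 0.56 ± 0.16 on the log2 scale (edgeR adjusted p 0.00241), from 64.4 ± 18.9 to 93.9 ± 29.2 CPM, in 4 of 5 heifers. Ampulla libraries spanned 43.5 to 134 CPM and uterine libraries 29.5 to 126, so the ranges overlapped, with 2 ampulla libraries above all uterine ones. Without heifer 10872 the log2 fold change was 0.26 (edgeR adjusted p 0.184). ERN2, a stress sensor gene of mucous epithelia that overlaps PLK1 in the reference table, moved with it, from 37.8 ± 14.3 to 63.8 ± 22.8 CPM (log2 0.80 ± 0.28). Its part in the PLK1 counts was not tested.

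Of the origin licensing and helicase genes 5 of 8 tested fell and 0 rose, where 35.6% of all features fell and 29.4% rose. MCM6 and MCM3, subunits of the helicase, fell, with log2 fold changes of -1.13 ± 0.15 and -0.68 ± 0.15 (edgeR adjusted p 1.62e-07 and 1.41e-04). MCM6 ran from 19.1 to 57.1 CPM in the ampulla libraries, with a median of 36.9, and from 34.9 to 133 in the uterine ones, with a median of 88.5. Only 2 uterine libraries lay below the highest ampulla value, 1 of them the doubted upper horn of heifer 11033 at 34.9 CPM. MCM3 ran from 27.1 to 56.3 CPM against 41.5 to 114, with 7 of 10 ampulla libraries below all uterine ones.

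GINS2, a subunit of the GINS complex that joins the MCM helicase to form the active replisome, fell by 1.34 ± 0.19 (edgeR adjusted p 4.46e-07). Its mean was 3.82 ± 1.27 CPM in the ampulla against 9.57 ± 2.62 in endometrium, lower in 5 of 5 heifers. CDT1, a licensing factor, fell by 0.52 ± 0.22 (edgeR adjusted p 0.0363), with 4.07 to 23.7 CPM against 8.55 to 39.7, and its call was lost without heifer 11033, 11070 or 11110, without the heifer term and without the 3 doubted libraries. APRT, which overlaps CDT1 in the reference table, rose by 0.59 ± 0.14 over the same contrast. MCM7 fell by 1.11 ± 0.33 (edgeR adjusted p 0.00476), from a feature at 5.16 ± 2.05 CPM in the endometrium. MCM4, MCM5 and GINS1, at no more than 1.83 ± 0.440 CPM in the ampulla, gave -0.02 ± 0.34, -0.52 ± 0.43 and 0.11 ± 0.22 and were not called. Without the 3 doubted libraries MCM5 gave -1.02 (edgeR adjusted p 0.0214).

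Nucleotide supply split by enzyme. RRM1, the large subunit of ribonucleotide reductase, which makes deoxynucleotides, was at 112, 133, 138, 109 and 118 CPM in the ipsilateral ampulla of heifers 10872, 10882, 11033, 11070 and 11110. In the contralateral ampulla it was at 121, 119, 133, 92.7 and 103 CPM. The uterine libraries held 181 to 413 CPM with a median of 257, and no ampulla library reached them. The log2 fold change was -1.14 ± 0.12 (edgeR adjusted p 1.01e-09, 5 of 5 heifers). A pseudogene that overlaps RRM1, LOC101904526, fell by 2.74 ± 0.42, at 12.5 ± 6.27 CPM in the endometrium.

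TYMS, thymidylate synthase, fell by 1.75 ± 0.47 (edgeR adjusted p 0.00175), with means of only 0.226 ± 0.138 CPM in ampulla and 0.819 ± 0.277 in endometrium. TK1, the thymidine kinase of the salvage route, was not called at 0.26 ± 0.15 (edgeR adjusted p 0.114), with an approximate 95% interval of -0.02 to 0.55. Its means were 39.0 ± 7.15 CPM in ampulla and 32.6 ± 4.51 in endometrium. At the replication fork, the flap endonuclease FEN1 fell by 0.59 ± 0.16 (edgeR adjusted p 0.00233). TMEM258, which overlaps FEN1, rose by 1.08 ± 0.16. PCNA, the sliding clamp, narrowly missed the threshold at -0.33 ± 0.15 (edgeR adjusted p 0.0528), with 66.6 ± 15.6 against 83.7 ± 14.2 CPM. It passed with DESeq2 size factors, at -0.42 with an edgeR adjusted p of 0.00831, with DESeq2, with no filter and with counts summed over features. It also passed without heifer 11033 or 11110 and without the 3 doubted libraries. PCNA stayed uncalled without heifer 10872, 10882 or 11070 and without the heifer term. The DNA ligase LIG1 gave -0.23 ± 0.30, and E2F1, which turns on S phase genes, fell by 0.83 ± 0.20 (edgeR adjusted p 4.90e-04), with 6.38 ± 1.48 against 11.3 ± 2.09 CPM.

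Spindle and checkpoint genes went both ways. KIF11, the kinesin that pushes the spindle poles apart, fell by 0.68 ± 0.24 (edgeR adjusted p 0.0147), a call lost without heifer 11070 or 11110. The checkpoint kinase gene BUB1 fell by 1.32 ± 0.56 (edgeR adjusted p 0.0398). BUB1 rested on 233 counts and lost its call without heifer 11033 or 11110, at adjusted p of 0.144 and 0.136. BIRC5, survivin of the chromosomal passenger complex, rose by 0.56 ± 0.20 (edgeR adjusted p 0.0173). In the ipsilateral ampulla it was at 27.5, 33.3, 54.4, 12.9 and 13.4 CPM in heifers 10872, 10882, 11033, 11070 and 11110, and contralaterally at 48.9, 44.1, 81.6, 26.8 and 12.7. The uterine libraries ran from 7.23 to 49.4 CPM, so both ampulla libraries of heifer 11033 lay above all of them and the other 8 lay within their range.

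The BIRC5 call was lost without heifer 10882, 11033 or 11070 (edgeR adjusted p 0.124, 0.186 and 0.0575), and without the 3 doubted libraries (0.0503). MAD2L1, a spindle checkpoint protein gene, rose by 0.43 ± 0.18 (edgeR adjusted p 0.0309), but was higher in 3 of 5 heifers and lower in 2. Its values spanned 12.6 to 51.7 CPM in the ampulla and 5.90 to 38.8 in the uterus. The call was lost without heifer 10882, 11033 or 11110 (0.119, 0.199 and 0.145), without the heifer term (0.0599), with DESeq2 (0.0584), with DESeq2 size factors (0.0677), with no filter (0.122) and with counts summed over features (0.0556). TOP2A, the topoisomerase that untangles chromosomes, was not called at -0.70 ± 0.43 from 341 counts.

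Without the 3 doubted libraries 14 of the 24 genes fell and 3 rose, where 6257 of all features fell and 4995 rose. CDT1 and BIRC5 dropped out and PCNA and MCM5 were added, both as lower. In these bulk samples fewer cells of a type and less RNA per cell cannot be told apart. The ampulla and endometrium libraries differed in every marker list: 6 of 6 tested stromal, 3 of 3 endothelial, 4 of 4 smooth muscle and 4 of 5 leukocyte markers fell in the ampulla. At the same time 6 of 6 ciliated and 4 of 5 general epithelium markers rose. Region and cell content cannot be told apart here.

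**Figure D2:**
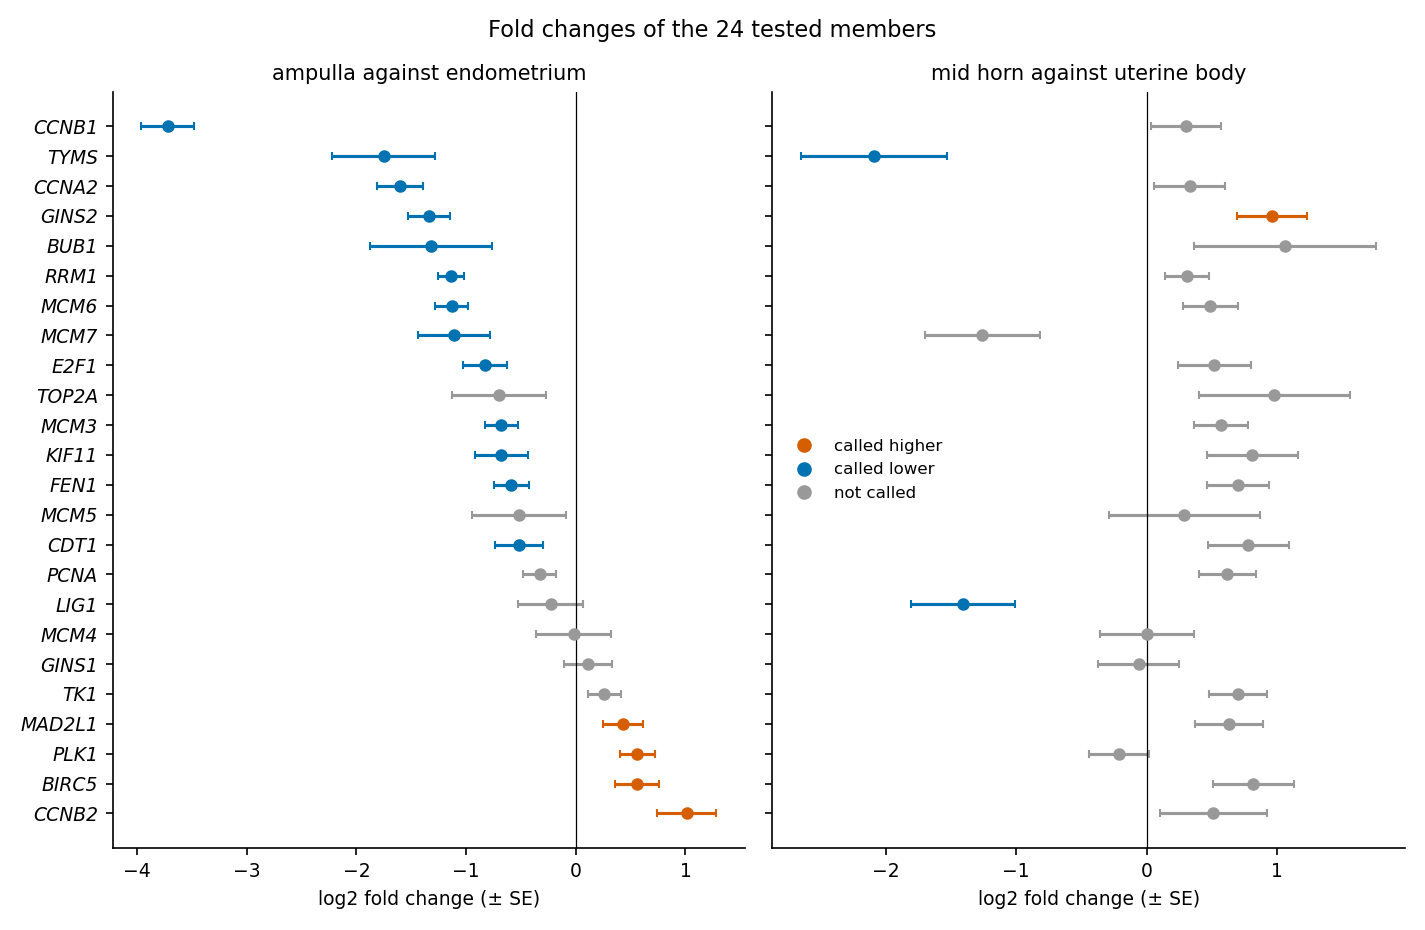
Log2 fold changes (x axis, ± SE) of the 24 tested genes (y axis, ordered by the left panel) for the ampulla against the endometrium and for the mid horn against the uterine body, coloured by call at an edgeR adjusted p under 0.05. On the left 13 genes were called lower and 4 higher, and on the right TYMS and LIG1 were called lower and GINS2 higher in the mid horn.

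The 12 genes under the filter were left out of the main fit, and the few counts they gave are listed here. The fold changes and p-values in this paragraph come from a fit of all features without a filter and rest on these few counts. AURKA, the Aurora kinase of spindle poles, had 68 counts in the 10 ampulla libraries and 62 in the 24 uterine ones, with a log2 fold change of 2.04 ± 0.52 (edgeR adjusted p 4.20e-04) and higher values in the ampulla of 5 of 5 heifers. KIF23, a kinesin of the spindle midzone whose gene overlaps PAQR5, had 35 and 31 counts and gave 1.85 ± 0.63 (edgeR adjusted p 0.0111). It was higher in the ampulla of 4 of 5 heifers and lower in 1. In the other direction RRM2, the small subunit of ribonucleotide reductase, had 1 count in the ampulla and 33 in the uterus. MCM2 had 1 and 13, lower in the ampulla of 3 of 5 heifers and higher in 1, and was not called. RRM2 gave an edgeR adjusted p of 0.0582. CDK1, the mitotic kinase itself, had 13 and 37 counts, but its means were alike, at 0.0688 ± 0.0179 CPM in ampulla and 0.0673 ± 0.0351 in endometrium. CDC20, the activator of the anaphase-promoting complex, had 10 and 3 counts and was not called. AURKB, CENPE and CCNE2 had 0 counts in the ampulla, which allows up to 0.0150 CPM by 3 counts over its libraries (counting error only), and 10, 7 and 4 in the uterus.

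The same question was asked of the sites next to and farthest from the ampulla. Against the upper horn, 13 of the 24 genes fell and 2 rose, where 55.2% of all features were called, 30.4% as lower and 24.9% as higher. The log2 fold changes were -3.90 ± 0.25 for CCNB1, -1.72 ± 0.23 for CCNA2, -1.48 ± 0.22 for GINS2 and -1.19 ± 0.14 for RRM1 (edgeR adjusted p 2.05e-14, 2.22e-07, 1.25e-06 and 1.07e-08). TOP2A also fell, by 1.31 ± 0.51 (0.0281), and lost its call without heifer 10872 or 11033. The 2 genes that rose were CCNB2 by 1.04 ± 0.35 (0.0113) and PLK1 by 0.54 ± 0.20 (0.0203). CCNB2 lost its call without heifer 11070, and PLK1 without heifer 10872, 10882 or 11110, which left 1 gene higher in each case. Without the heifer term CCNB2, CDT1 and KIF11 lost their calls in this comparison. Leaving out 1 heifer also ended the calls of MCM7 (without 10872, 10882, 11070 or 11110), CDT1 (10882, 11033, 11070 or 11110), KIF11 (10882 or 11070) and TYMS (11110).

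Against the uterine body, 8 genes fell and 4 rose, where 61.6% of all features were called, 36.0% as lower and 25.6% as higher. The log2 fold changes were -3.47 ± 0.27 for CCNB1, -2.85 ± 0.59 for TYMS, -1.79 ± 0.44 for MCM7, -1.37 ± 0.26 for CCNA2 and -0.95 ± 0.16 for RRM1 (edgeR adjusted p 2.13e-12, 1.23e-04, 8.72e-04, 4.97e-05 and 6.71e-06). MCM6, GINS2 and LIG1 also fell, at -0.90 ± 0.20, -0.79 ± 0.26 and -0.98 ± 0.41. The LIG1 call was lost without heifer 10882, 11033 or 11070, without the 3 doubted libraries, without the heifer term and with no filter, and the GINS2 call without heifer 10872. Those that rose were CCNB2 at 1.25 ± 0.42, BIRC5 at 1.02 ± 0.31, MAD2L1 at 0.78 ± 0.26 and TK1 at 0.60 ± 0.22 (0.0117, 0.00584, 0.0118 and 0.0172). Without heifer 10882, 11033 or 11110 only 2 genes rose: MAD2L1 and TK1 lost their calls in each case, and without heifer 11033 BIRC5 did too while PLK1 gained one. TK1 also lost its call with no filter, and CCNB2 without heifer 11070. PCNA, MCM3, FEN1 and KIF11 gave 0.01 ± 0.21, -0.34 ± 0.20, -0.23 ± 0.23 and -0.23 ± 0.33 and were not called, and the PCNA estimate was -0.13 with DESeq2 size factors. These scale factors moved the median of all features in this contrast from -0.29 to -0.44. The 3 ampulla comparisons share the ampulla libraries.

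**Figure D3:**
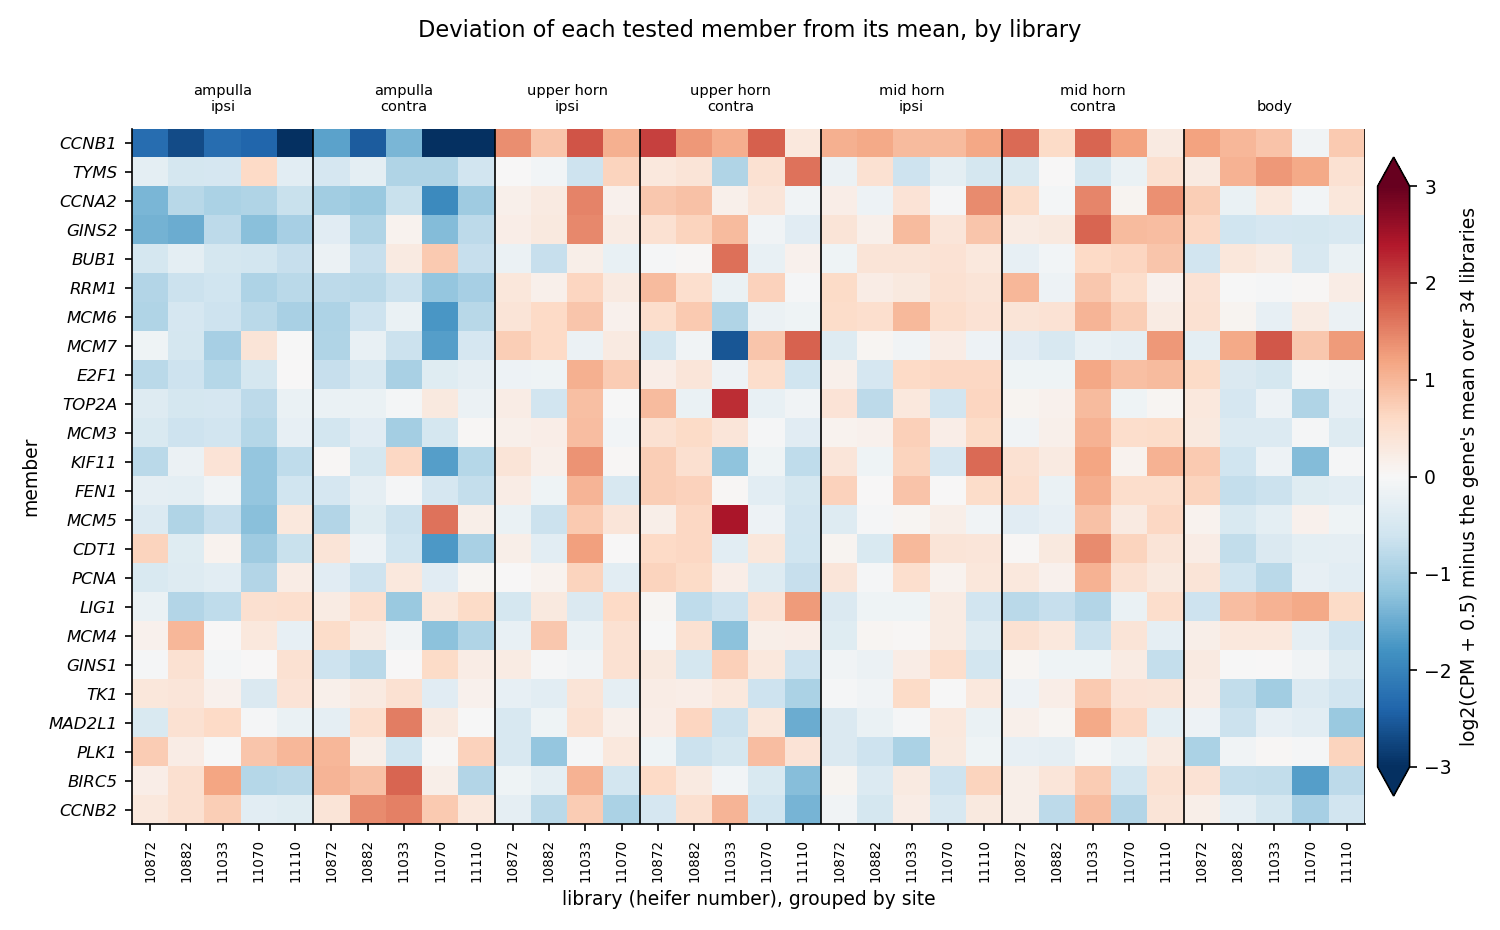
Deviation of log2(CPM + 0.5) from the gene's mean over 34 libraries (colour) for each tested gene (rows) and library (columns, by site and heifer number). CCNB1, CCNA2, RRM1 and MCM6 were low throughout the ampulla columns, and TOP2A, MCM5 and BUB1 peaked in heifer 11033 at the contralateral upper horn.

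Within the uterus the upper and mid horn were compared first. No gene of the list was called between them, where 0.0174% of all features were (0.0116% as higher and 0.00580% as lower in the upper horn), and TK1 alone had an unadjusted p under 0.05 (log2 -0.38 ± 0.18). DESeq2 called 0 as well. Among the 14 genes with a mean of at least 10 CPM, fold changes lay between -0.38 and 0.14 on the log2 scale, and their approximate 95% intervals reached from -0.84 to 0.58. Between the upper horn and the body 0 were called by edgeR and by DESeq2, with 0.0232% of all features called. MCM3, TYMS, GINS2 and TOP2A had an unadjusted p under 0.05, at 0.45 ± 0.21, -1.21 ± 0.57, 0.69 ± 0.27 and 1.40 ± 0.60.

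The mid horn against the uterine body gave 3 calls among the 24 genes, where 4.45% of all features were called, 0.528% as higher and 3.92% as lower in the mid horn. GINS2 was higher in the mid horn, by 0.96 ± 0.27 (edgeR adjusted p 0.0444). In the body it stood at 11.4, 4.61, 4.90, 4.83 and 5.02 CPM in heifers 10872, 10882, 11033, 11070 and 11110. Ipsilateral mid horn libraries held 9.57, 8.0, 14.3, 9.45 and 13.1 CPM in the same order, and contralateral ones 8.54, 8.90, 25.1, 14.3 and 14.0. The body was lower in 4 of 5 heifers, and heifer 10872 was the exception.

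TYMS and LIG1 went the other way, at -2.09 ± 0.56 and -1.41 ± 0.40 (edgeR adjusted p 0.0408 and 0.0454). TYMS in the body was at 0.621, 1.43, 1.78, 1.55 and 0.779 CPM in heifers 10872, 10882, 11033, 11070 and 11110, against a mid horn mean of 0.348 ± 0.189, and the body was above the mean of the heifer's mid horn libraries in 5 of 5. In heifer 11110 the body (0.779) was below the contralateral mid horn (0.794) and contralateral upper horn (2.37) taken singly. LIG1 was at 0.582, 2.64, 2.89, 3.13 and 1.95 CPM in the body in that order, against a mid horn mean of 0.897 ± 0.297, and was higher in 4 of 5. The feature of MCM7 showed the same side, at 7.20 ± 3.64 CPM in the body and 3.22 ± 1.29 in the mid horn, but was not called (log2 -1.26 ± 0.44, edgeR adjusted p 0.0715).

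**Figure D4:**
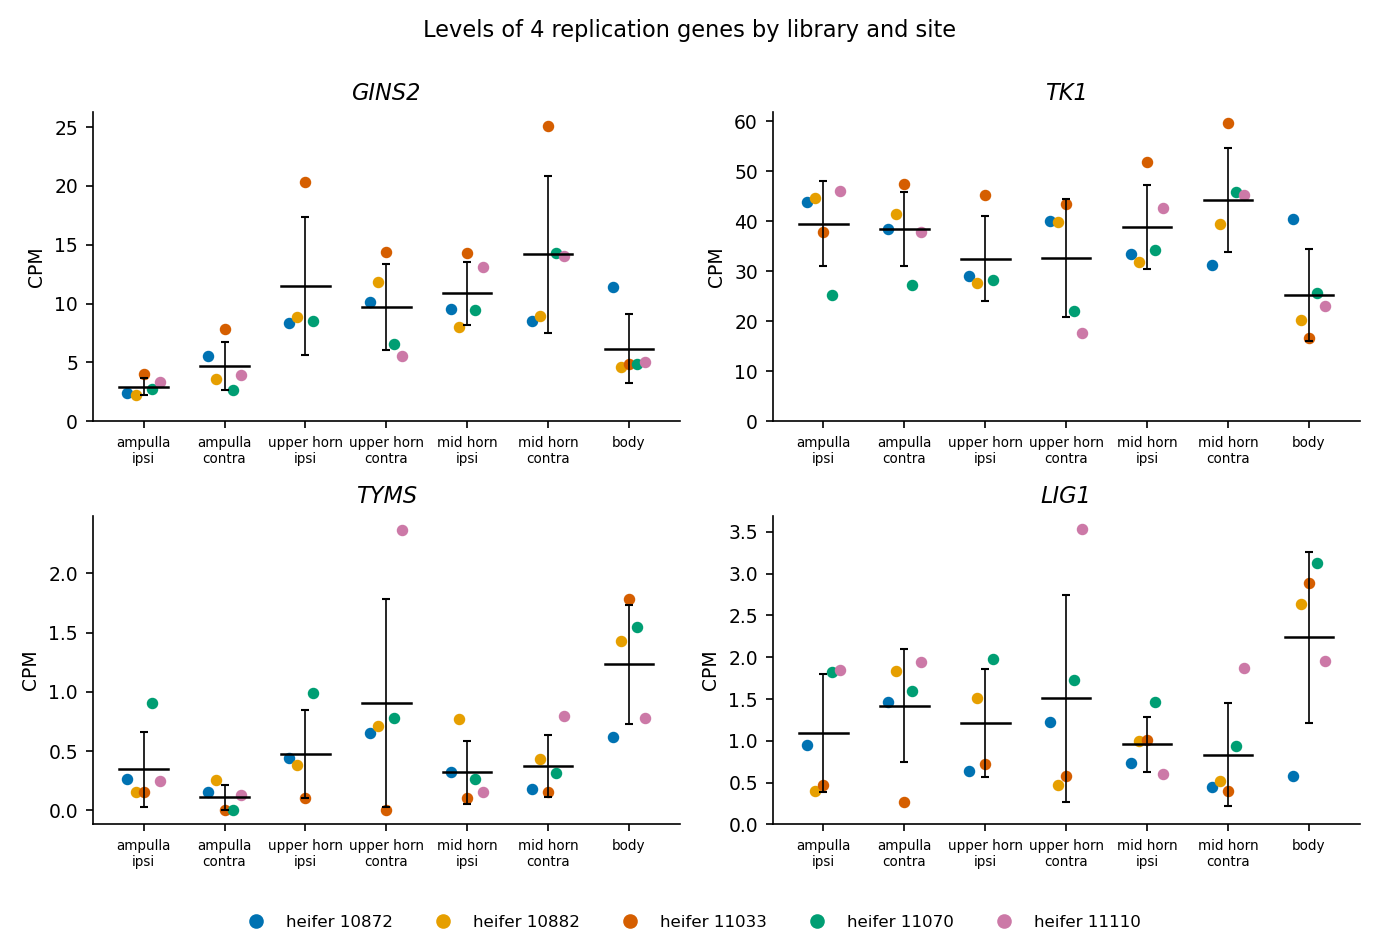
CPM (y axis, linear) of GINS2, TK1, TYMS and LIG1 in each library (points, coloured by heifer) at the 7 sites (x axis), with the group mean (bar) and SD (whisker). In the body, GINS2 and TK1 were low in 4 heifers, at 4.61 to 5.02 and 16.6 to 25.7 CPM, and heifer 10872 stood apart at 11.4 and 40.5 CPM. TYMS was at 1.43 to 1.78 CPM in the bodies of heifers 10882, 11033 and 11070 and at 0.621 and 0.779 in the other two, and LIG1 was lowest in the body of heifer 10872.

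Most of the other replication genes leaned toward the mid horn without passing the threshold. PCNA gave 0.62 ± 0.22, TK1 0.70 ± 0.22, FEN1 0.70 ± 0.24, MCM3 0.57 ± 0.21 and MCM6 0.49 ± 0.21, at edgeR adjusted p of 0.0743, 0.0547, 0.0666, 0.0812 and 0.132. Of the 24 genes 19 had a positive estimate and the median was 0.52, beside -0.06 over all features. All 3 calls were lost without heifer 10882, 11033 or 11070, and without the heifer term. Almost all calls of the whole table were lost in those fits too. Over all features 0 were higher in each, and 0, 2, 0 and 1 were lower in that order. The main fit held 91 higher and 676 lower. GINS2 also lost its call without heifer 11110 and with no filter. Without heifer 10872 there were 6 higher and 2 lower calls, beside 508 higher and 1327 lower over all features. Body libraries held 23675 to 26676 features and TMM factors of 0.916 to 1.35, and mid horn libraries 21002 to 24330 and 0.94 to 1.19. The body of heifer 10872 had the lowest number of features among the 5, and 2 of 5 general epithelium markers were called higher in the mid horn. The part of these properties in the difference was not tested.

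The 2 sides of the tract were compared to ask whether the ovulatory side differed. No gene of the list was called in the ampulla, the upper horn or the mid horn, by edgeR or by DESeq2, and 0.0174%, 0.00580% and 0% of all features were called there by edgeR. In the ampulla BUB1, CCNB2 and GINS2 had an unadjusted p under 0.05. Their log2 differences were -2.08 ± 0.98, -0.94 ± 0.46 and -0.63 ± 0.31, ipsilateral against contralateral, with edgeR adjusted p of 0.682, 0.685 and 0.685. In both horns 0 of the 24 genes had an unadjusted p under 0.05.

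For CCNB1, the ipsilateral against contralateral log2 difference was -0.26 ± 0.33 in the ampulla, -0.23 ± 0.33 in the upper horn and 0.01 ± 0.31 in the mid horn. RRM1 gave 0.11 ± 0.19, -0.11 ± 0.20 and -0.10 ± 0.19, with approximate 95% intervals of -0.26 to 0.48, -0.50 to 0.29 and -0.47 to 0.27. In the mid horn 20 of the 24 estimates were negative, with a median of -0.18, beside -0.02 over all features. The 24 estimates come from the same libraries and are not independent. The difference of the side effect between ampulla and horns was called for 0 genes of the list and 0% of all features, and TYMS alone had an unadjusted p under 0.05. DESeq2 called 0 of the genes. The intervals of RRM1 were the narrowest of the list. The median SE of the 24 genes was 0.33 in the ampulla, 0.35 in the upper horn and 0.33 in the mid horn. Differences between the sides under a gene's own interval width were not detectable with 5 heifers.

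Single animals and libraries were then set side by side. Each library was summarised by the median, over the 24 genes, of its deviation in log2(CPM + 0.5) from the mean of all ampulla or all uterine libraries. The contralateral mid horn of heifer 11033 was the highest uterine library at 0.83, followed by its ipsilateral upper horn at 0.61. The contralateral upper horn of heifer 11110 was the lowest at -0.66, and the body of heifer 10882 followed at -0.57. The mean was taken over all uterine sites, so these values also hold differences between sites. The body of heifer 11033 was at -0.33, but those of heifers 10882, 11070 and 11110 lay at -0.57, -0.33 and -0.36. Only the body of heifer 10872 was above the mean, at 0.14. Ampulla libraries, which span fewer sites, ran from -0.26 to 0.26, and both ampulla libraries of heifer 11070 were the low ones.

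Single genes showed these animals plainly. PCNA reached 162 CPM in the contralateral mid horn of heifer 11033 against 85.5 to 107 in the other 4 heifers. CCNA2 was at 28.5 CPM in its ipsilateral upper horn against 10.8 to 11.9 in the other 3. In heifer 11110, CCNA2 was at 26.9 and 26.4 CPM in the ipsilateral and contralateral mid horn but at 9.10 in the contralateral upper horn. KIF11 followed, at 51.8, 33 and 9.06 CPM in the same 3 libraries.

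Other genes of the pathway were counted from lists that hold none of the 46. Of 41 other replication genes 18 were tested between ampulla and endometrium. In the ampulla 9 of them fell and 3 rose (median log2 fold change -0.28), beside 35.6% lower and 29.4% higher over all features and a median of -0.18. GINS3, of the GINS complex, and the fork protection gene TIPIN fell, at -1.90 ± 0.48 and -1.70 ± 0.43. These 2 features were low, with only 318 and 445 counts in all. The histone chaperone subunit CHAF1B and the histone mRNA binding gene SLBP fell as well, at -0.96 ± 0.16 and -0.90 ± 0.18. The primase subunit PRIM2, the clamp loader subunit RFC3 and the single-strand binding subunit RPA2 rose by 1.0 ± 0.11, 0.83 ± 0.14 and 0.54 ± 0.12. Each of these rises was seen in 5 of 5 heifers. RFC5, another clamp loader subunit, was the only one called between mid horn and body, lower in the mid horn by 1.25 ± 0.30 (edgeR adjusted p 0.0408).

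Of 40 other mitosis genes 16 were tested. The ampulla had 8 of them lower and 3 higher (median -0.71), where 35.6% and 29.4% of all features were. The cyclin F gene CCNF fell by 3.22 ± 0.26, from 15.2 ± 3.31 CPM in the endometrium to 1.61 ± 0.388. CDCA8, of the chromosomal passenger complex, fell by 2.80 ± 0.28. CDCA3, which promotes entry into mitosis, and the kinesin gene KIF18B fell, at -1.94 ± 0.25 and -1.68 ± 0.29. NDC80, of the kinetochore, and ASPM, of the spindle poles, rose by 0.67 ± 0.25 and 0.64 ± 0.23, each in 4 of 5 heifers, and the condensin gene SMC4 by 0.53 ± 0.18 in 5 of 5. BIRC5 and CDCA8, whose proteins sit in the same complex, therefore went in opposite directions in the main fit. The BIRC5 call was lost without heifer 10882, 11033 or 11070 and without the 3 doubted libraries, so its side of this contrast is weak.

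Of 7 tested genes of G1 control 3 fell and 1 rose, with a median of -0.27, so 4 of 7 were called where 64.9% of all features were, a share near the background. CDK2, the kinase that cyclins A and E activate, fell by 1.31 ± 0.16, from 21.0 ± 2.40 to 8.64 ± 2.72 CPM. Cyclin D3, CCND3, and MYC fell as well, at -1.04 ± 0.30 and -0.72 ± 0.30. Cyclin D2, CCND2, rose by 1.43 ± 0.26. Of 12 tested inhibitors and members of the DREAM complex, which represses cell cycle genes in resting cells, 3 rose and 3 fell, with a median of -0.09. These counts are no larger than the shares over all features, 29.4% higher and 35.6% lower. The CDK4 and CDK6 inhibitor CDKN2C rose by 1.59 ± 0.24, from 11.0 ± 1.04 to 34.6 ± 16.6 CPM, the pocket protein gene RBL2 by 1.86 ± 0.35 and LIN37 by 0.52 ± 0.14. WEE1, CDKN2B and CDKN1B fell, at -1.54 ± 0.56, -0.92 ± 0.35 and -0.33 ± 0.12, CDKN1B in only 3 of 5 heifers. WEE1 rested on 240 counts in all.

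Multiciliated cells reuse relatives of cell cycle genes to build many centrioles without dividing. A list of such genes also held FOXJ1, which is no such relative and was already counted among the ciliated markers above. Of its 6 tested genes 5 were called higher in the ampulla and 0 lower (median 3.53), where 29.4% of all features were higher. CDC20B, a relative of CDC20, rose by 4.61 ± 0.69, the cyclin relative CCNO by 4.19 ± 0.54, the geminin relative MCIDAS by 3.89 ± 0.49 and the cilia transcription factor FOXJ1 by 3.16 ± 0.32 (edgeR adjusted p 2.34e-06, 2.13e-07, 5.86e-08 and 1.57e-09). CCNO had means of 158 ± 51.7 CPM in ampulla and 13.2 ± 8.94 in endometrium, the opposite order to CCNB1.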

How the data were processed

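The protocols, per the labels, name a Qiagen RNeasy microkit used after homogenisation with beads, and a directional NEBNext library kit. What the authors deposited is a single table of whole-number read counts for annotated features, without normalisation. The submitters' processing notes list cutadapt, STAR 2.7.9a, HTSeq and SAMtools but give them no role. No source used here states the strand setting, the genome build, the annotation or how shared reads were counted.

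Of 38568 features 26338 were matched to gene names of a RefSeq table (assembly ARS-UCD2.0, used for names, transcript numbers and overlaps), carrying 95.3% of counts. The tests used edgeR 4.0.16 in R 4.3.3 with TMM scaling, filterByExpr (17241 features kept), group and heifer terms and robust quasi-likelihood F tests on all 34 libraries, with 10 contrasts adjusted separately by the Benjamini-Hochberg method. An approximate 95% interval is the estimate with the normal range of its SE. P-values rest on the spread between single libraries that is left after the group and heifer terms. Both sides of a region in a heifer count as separate libraries. How far a difference between regions varied from heifer to heifer was not modelled. The procedure was also run on simulated counts with few changed features, as many up as down, and no heifer effect. That run cannot show how the scaling or the heifer term behaves in these data, where most features differed between ampulla and endometrium. Alternatives included DESeq2 1.42.0.

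Heifer was used as a block because sample titles carry the animal's number at every site. Deviations from group means had a median correlation of 0.207 over 99 library pairs of the same heifer and -0.0539 over 396 pairs of different heifers. No 2 libraries of a group agreed within sampling noise (chi-square per feature at least 44.8 over 66 pairs).

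The genes and lists were chosen with earlier results of these data known. The naming rule took 7 preset genes (those that passed the filter), up to 10 called genes per direction by fold change and up to 5 uncalled genes by level in each contrast, and up to 4 per direction in other lists. Genes named beyond it (FEN1, CDT1, KIF11, MCM4, AURKA, KIF23 and the others under the filter, genes with an unadjusted p under 0.05, and genes that overlap a member) were chosen after their values were seen. Promoter sequences were not analysed here.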

Additional observations from a re-analysis of the deposited data

Results flagged for a closer look

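In 168 combinations of gene and site, 20 held 1 heifer whose value lay apart from the others by Dixon's 95% criterion, and chance flags about 1 in 20 such groups. Heifer 11033 gave 11 of them. In its contralateral upper horn, a library with few features, TOP2A was at 3.87 CPM (others 0.295 to 1.31), MCM5 at 6.57 (0.372 to 1.51) and BUB1 at 2.03 (0.184 to 0.372). In its other uterine libraries TOP2A (1.31) and PCNA (162) stood high in the contralateral mid horn, MCM6 (129) in the ipsilateral mid horn, and CCNA2 (28.5), GINS2 (20.3) and TK1 (45.2) in the ipsilateral upper horn. In its contralateral ampulla MAD2L1 was high at 51.7 CPM and LIG1 low at 0.262.

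The contralateral ampulla of heifer 11070, the library with the fewest features, was high in TOP2A at 0.639 CPM and MCM5 at 3.52. In that library and in the contralateral upper horn of heifer 11033, the MCM4 and TYMS features were at 0. The ipsilateral ampulla of heifer 11070 was high in TYMS at 0.909 CPM. The body of heifer 10872 was high in GINS2 (11.4 CPM), BIRC5 (32.5) and FEN1 (43.9), and its ipsilateral mid horn was low in BUB1 (0.229). In heifer 11110, MCM7 in the contralateral mid horn (8.27 CPM) and CCNA2 in the ipsilateral mid horn (26.9) were high.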

How the results depend on the processing

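Among the named genes, no called fold change changed sign under the alternatives run. Without the replicate block for heifer, 1 gene in place of 2 was called higher in the ampulla against the upper horn. The mid horn against the body then had 0 higher and 0 lower calls, with 0 and 1 over all features. The other counts without that block stayed within 1.5 times. For the mid horn against the body, DESeq2 gave 3 and the fit without the 3 doubted libraries 4 higher calls in place of 1. Over all features these fits gave 379 and 243 higher calls in place of 91. Leaving out 1 heifer in turn gave 2 to 3 higher and 11 to 13 lower calls for the ampulla against the endometrium. Against the upper horn it gave 1 to 2 and 11 to 12, and against the body 2 to 4 and 7 to 10. Over all features these fits gave 4338 to 5072 higher and 5403 to 6280 lower calls against the endometrium. They gave 3620 to 4327 and 4524 to 5434 against the upper horn, and 3704 to 4199 and 5464 to 6554 against the body. For the mid horn against the body the ranges were 0 to 6 and 0 to 2, beside 0 to 508 and 0 to 1327 over all features. DESeq2 size factors, no filter, and counts summed over the features of a gene kept all counts within 1.5 times. The planned promoter motifs were not run. Features with few counts (TYMS, BUB1, TOP2A, MCM4, MCM5, LIG1) limit precision through depth.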
